A study of Homo sapiens with 6 samples.

Results

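A set of 37 genes was followed that comprises target genes of transforming growth factor beta (TGF-beta), genes that hold TGF-beta in the matrix or feed back on its signal, and genes for the extracellular matrix and its remodelling. They were chosen by gene symbol, with earlier results of these data known. A gene was measured by its transcript cluster, a group of array probes for 1 transcript unit, where the annotation gives that cluster exactly 1 symbol. All 37 genes were measured, among 18372 genes with 19291 such clusters on the array. TIMP3 has 2 clusters and is given by the one with the higher mean, and the other genes have 1. Of the 37 genes, 21 had a mean above a log2 value of 3.82, which is 1 log2 unit above the median of 378 clusters for olfactory receptors, a class of genes used here as a stand-in for background. The other 16 genes lay under this limit, and their values may be mostly background.

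HepG2 is a human hepatoma cell line with many features of hepatocytes. The untreated group consists of 3 arrays of HepG2 cells. The leaf extract group consists of 3 arrays of HepG2 cells that received the water leaf extract of B. racemosa at 50 µg/ml for 24 h. Total RNA was hybridised to the Affymetrix Human Gene 1.0 ST Array, and expression is given on a log2 scale. No vehicle is named for the untreated cells, there is 1 dose and 1 time, and the labels call the replicates biological without saying whether they were separate cultures, so that the p-values reflect no more than the spread among these 6 arrays.

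TGF-beta is secreted in a latent form that latent TGF-beta binding proteins anchor to the matrix, and integrins that contain the alpha V chain can release it. The free ligand joins a type II and a type I receptor, which phosphorylate SMAD2 and SMAD3. These enter the nucleus with SMAD4 and act on target genes, among them genes for matrix proteins and protease inhibitors and genes that dampen the signal. In the liver most matrix is made by activated stellate cells, while hepatocytes respond to TGF-beta with growth arrest, cell death or mesenchymal features.

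The cells had the markers of their label. Of 18 hepatocyte and hepatoma genes measured, 17 lay above the background limit, with a median of 9.14 to 9.27 on the 6 arrays. Their changes with the leaf extract were below 0 for 16 of the 18, while 53.0% of all clusters, most of them dimmer, had a change above 0. The median change was -0.10, with differences from the untreated mean of -0.18, -0.04 and -0.08 on leaf extract arrays 1, 2 and 3. All tested clusters at 7 and over in untreated cells had median differences of -0.17, -0.01 and -0.17. The lower values are therefore not shown to be particular to these 18 genes. Of the 18, 1 was higher and 1 lower at an unadjusted p under 0.05, beside 3.87% and 5.9% of all clusters. The part of these 18 genes in the results was not tested. Of 12 fibroblast and stellate cell markers, 1 lay above the limit, and their median was 2.95 to 2.99 on the untreated arrays and 2.90 to 2.99 on the leaf extract arrays. Of 10 endothelial markers, 1 lay above the limit (median 2.98 to 3.15 in untreated and 3.07 to 3.25 in treated cells). So did 4 of 9 macrophage and blood markers (median 3.05 to 3.31 and 3.17 to 3.52). These 4 were LYZ, CD68, CSF1R and TYROBP, with means of 10.46, 6.90, 6.63 and 4.91 in untreated cells. PTPRC, which is carried by all white blood cells, was under the limit, at 2.48 to 2.64. The correlation over all tested clusters was 0.9881 between leaf extract array 1 and each other treated array, and 0.9865 between arrays 2 and 3. In the shift of clusters by level, leaf extract array 2 stood apart from the other treated arrays. Clusters at 7 and over in untreated cells were lower on leaf extract arrays 1 and 3 by a median of -0.17 on each and by -0.01 on array 2, and clusters under 3.5 were higher by 0.05 and 0.06 on arrays 1 and 3 and by 0 on array 2. Values that rest on 1 of these arrays are named as such beside the results.

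**Figure D1:**
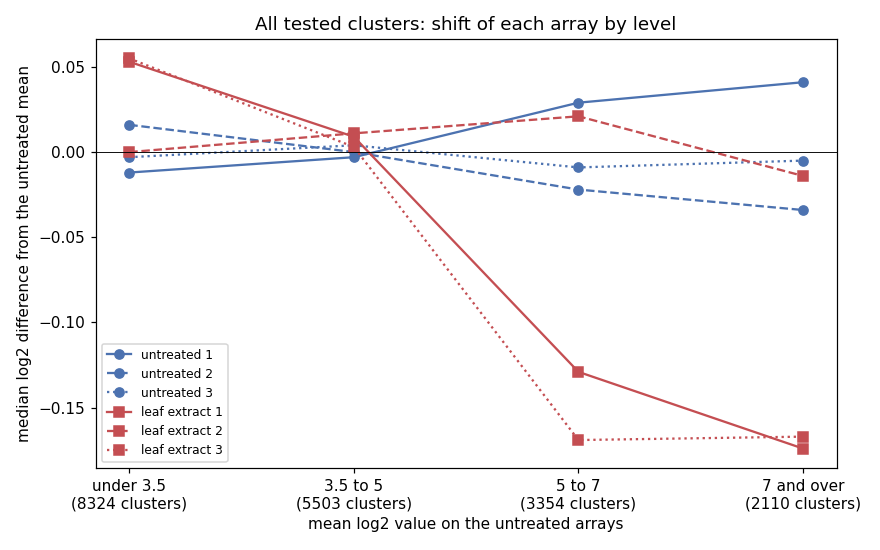
Median log2 difference of each array from the untreated mean (vertical axis) for all 19291 tested clusters, binned by their mean log2 value on the untreated arrays (horizontal axis). Blue circles are untreated and red squares leaf extract arrays. Leaf extract arrays 1 and 3 lie above 0 in the dimmest bin and near -0.17 in the brightest, while leaf extract array 2 stays close to the untreated arrays.

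With the leaf extract 7 genes of the set were higher and 1 was lower at an unadjusted p under 0.05, and none passed the adjustment for all tested clusters. TIMP1, an inhibitor of matrix metalloproteinases, was 1.56-fold higher. ITGAV, the integrin alpha V chain, was 1.36-fold higher. The CCN proteins CCN1 and CCN2, secreted proteins that bind integrins and growth factors, were 1.39-fold and 1.20-fold higher. SKIL, which encodes the SMAD corepressor SnoN, was 1.40-fold lower. Genes for the interstitial collagens and for the TGF-beta ligands did not pass an unadjusted p under 0.05, which is called the nominal threshold here.

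No gene of the set passed the Benjamini-Hochberg adjustment over all tested clusters (limma). 1 cluster of all those tested, that of ID2, did, which is 0.00518% of them, and the lowest adjusted p among the 37 genes was 0.297. At an unadjusted p under 0.05, 7 genes were higher in treated cells (TIMP1, CCN1, TAGLN, ITGAV, CCN2, CDH2 and LAMB1), or 18.9% of the set, against 3.87% of all clusters. SKIL alone was lower, against 5.9% of all clusters. Because the set was chosen with earlier results of these data known, these shares are not an independent test. A change of at least 1.5 fold together with an unadjusted p under 0.05, the thresholds of the series' own design, was reached by TIMP1 alone, against 0.84% of all clusters, and by no gene without untreated array 3, where the change of TIMP1 was 0.55 on the log2 scale. Without leaf extract array 3, TIMP1 and TAGLN both reached it, at 0.70 and 0.64. All 3 treated arrays were above all 3 untreated arrays for 10 genes, which are the 7 already named and MMP14, ACTA2 and VIM, against 6.14% of all clusters. SKIL was the only gene with all treated arrays below all untreated ones, against 7.41% of all clusters. The lowest 2-sided p an exact permutation test can give for 3 against 3 arrays is 0.1.

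The median log2 change over the 37 genes was 0.11, beside 0.01 over all clusters, and 30 of the 37 changes were above 0, beside 53.0% of all clusters. After quantile normalization 26 changes were above 0. Centring each array on its median lowers the log2 change of every gene by the same 0.064, so that the median over all clusters became -0.05, the median of the set 0.04 and the number above 0 was 23. The set was above all clusters by 0.095 as deposited and 0.090 after quantile normalization. Centring cannot change this difference, and the 0.094 after centring differs by rounding only. After quantile normalization 11 genes had an unadjusted p under 0.05, with SPARC, FN1, TGM2 and ACTA2 added and TAGLN lost. Of these, 10 were higher and 1 lower, beside 4.57% higher and 5.38% lower of all clusters. After centring the number was 5, with 4 higher and 1 lower, beside 1.95% higher and 9.72% lower of all clusters. Without leaf extract array 2 that number was 13, with 11 higher and 2 lower, and over all clusters the shares were then 8.28% higher and 11.7% lower. The shares over all clusters were 3.23% and 3.66% without leaf extract array 1, and 3.61% and 3.8% without array 3. Some genes below are said to pass once 1 treated array is left out. That array went least with the change of the gene, so such a pass is no added support. The 21 genes above the background limit had a median change of 0.19, with 6 higher and 1 lower at an unadjusted p under 0.05. In a fit of the 9329 clusters above that limit the median was -0.05, with 3.85% higher and 9.98% lower. The 16 genes under the limit had a median change of 0.06, with 13 changes above 0 and TAGLN alone past that p. All tested clusters under 3.5 in untreated cells differed by a median of 0.05, 0 and 0.06 on leaf extract arrays 1, 2 and 3. The changes above 0 among the dim genes are therefore not shown to be particular to them.

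**Figure D2:**
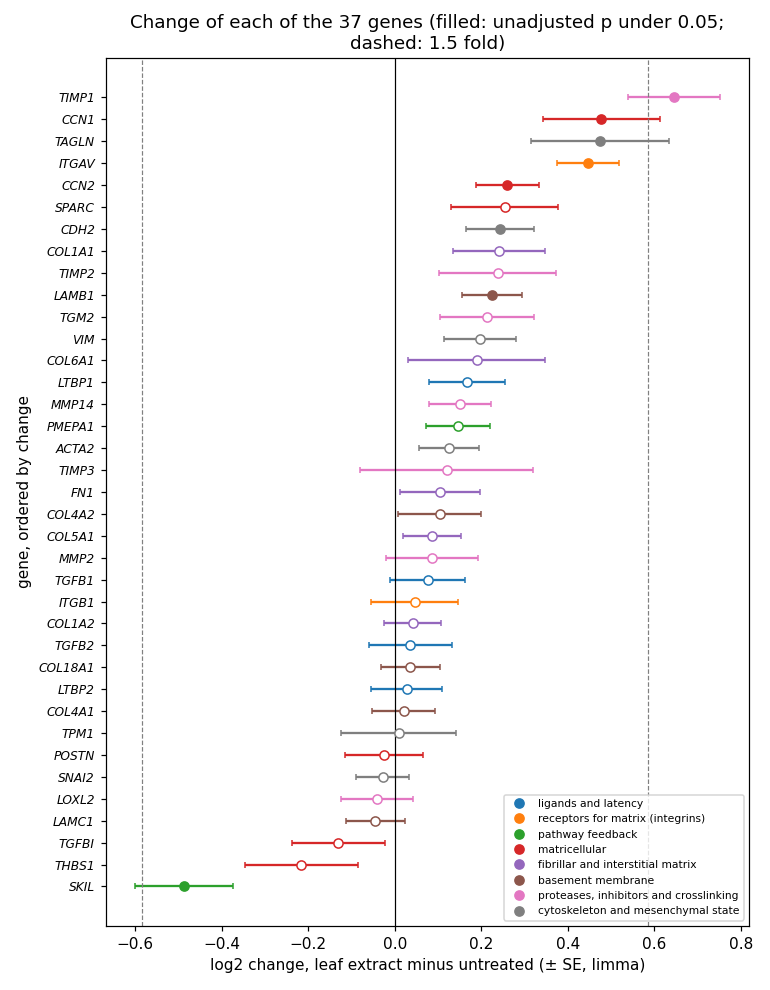
Log2 change of each of the 37 genes with the leaf extract (horizontal axis, leaf extract minus untreated, bars are the SE from limma, 3 arrays a group), ordered by change and coloured by role. TIMP1, at 0.65, is the only gene beyond the dashed lines at 1.5 fold, and SKIL, at -0.49, is the lowest.

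The promoters of some of these genes are shown so that the genes with the smallest p can be set beside known binding motifs of the pathway. Sequences are from RefSeq on GRCh38.p14, cover the 250 bases before the annotated start of the gene, run 5′ to 3′ on the gene's strand, and were present for 27 of the 37 genes. Capitals mark the SMAD box (CAGAC, or GTCTG on the other strand) and the core site of TEAD factors (CATTCC, or GGAATG on the other strand), the DNA-binding partners of YAP.

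CCN2, chr6:131951373-131951622, minus strand:
CCN2: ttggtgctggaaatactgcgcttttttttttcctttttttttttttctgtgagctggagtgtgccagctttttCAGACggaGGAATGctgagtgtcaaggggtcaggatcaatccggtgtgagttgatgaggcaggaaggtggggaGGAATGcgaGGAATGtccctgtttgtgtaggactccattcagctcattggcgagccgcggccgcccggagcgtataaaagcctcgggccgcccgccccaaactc
SKIL, chr3:170357465-170357714, plus strand:
SKIL: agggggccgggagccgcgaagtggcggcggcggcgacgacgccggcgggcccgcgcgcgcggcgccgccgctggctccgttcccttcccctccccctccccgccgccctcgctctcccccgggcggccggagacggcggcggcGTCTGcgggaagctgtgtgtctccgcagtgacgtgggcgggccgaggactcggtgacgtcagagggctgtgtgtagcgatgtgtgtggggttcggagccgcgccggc
ITGAV, chr2:186589806-186590055, plus strand:
ITGAV: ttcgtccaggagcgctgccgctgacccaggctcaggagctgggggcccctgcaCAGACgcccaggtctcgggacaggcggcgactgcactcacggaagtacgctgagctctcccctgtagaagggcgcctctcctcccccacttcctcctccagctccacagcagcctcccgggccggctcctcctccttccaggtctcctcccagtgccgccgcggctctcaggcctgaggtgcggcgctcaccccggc
TIMP1, chrX:47582186-47582435, plus strand:
TIMP1: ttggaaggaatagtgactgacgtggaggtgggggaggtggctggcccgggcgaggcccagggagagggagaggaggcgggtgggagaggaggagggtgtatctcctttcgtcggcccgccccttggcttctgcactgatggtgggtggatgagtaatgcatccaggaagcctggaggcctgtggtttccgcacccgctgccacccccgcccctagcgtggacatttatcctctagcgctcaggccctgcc

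CCN2 holds 1 SMAD box, from base -177 to -173 before the start, and 3 TEAD sites, the nearest from -95 to -90. SKIL and ITGAV hold 1 SMAD box each, and TIMP1 holds none of the motifs searched. The SMAD box is short and stands in 37.8% of 27305 promoters, in 4 of the 6 genes with an unadjusted p under 0.05 and a promoter sequence (CCN2, CDH2, ITGAV and SKIL) and in 9 of the 21 other genes. The TEAD site stands in 11.9% of all promoters, in CCN2 among those 6 genes and in ITGB1, SPARC, TGFB2 and THBS1 among the 21. The AP-1 site (TGAGTCA or TGACTCA) stands in 4.2% of all promoters and in POSTN alone here. The SMAD palindrome (GTCTAGAC) and the CArG box of serum response factor stand in 0.2% and 1.1% of all promoters and in 0 of these 27. Both strands were searched, and no 2 of the searched motifs share bases in the sequences shown. A match describes these letters only.

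The genes for ligands and latency were near the untreated level. TGFB1 encodes the main TGF-beta ligand and was 4.40 ± 0.14 (SD, n = 3) in untreated and 4.47 ± 0.03 (SD, n = 3) in treated cells, a log2 change of 0.08 with an SE of 0.09. TGFB2, a second ligand, and LTBP1 and LTBP2, which anchor latent ligand to the matrix, were under the background limit, with log2 changes of 0.04, 0.17 and 0.03. The groups overlapped for all 4 genes. The changes of TGFB2 and LTBP2 were below 0 after quantile normalization, at -0.01 and -0.05.

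ITGAV was measured at 9.29, 9.25 and 9.27 on the untreated arrays and at 9.65, 9.83 and 9.67 on the leaf extract arrays. All treated arrays lay above all untreated arrays, and the untreated arrays lay close together. The log2 change was 0.45 with an SE of 0.07 (adjusted p = 0.297, limma). ITGAV kept an unadjusted p under 0.05 in each of 15 alternative settings, with changes from 0.38 to 0.54. ITGB1, a beta chain that pairs with alpha V and many other alpha chains, was 7.51 ± 0.09 in untreated and 7.56 ± 0.16 in treated cells (SD, n = 3), with overlapping groups and a log2 change of 0.05. Of the beta chains that pair with alpha V in the release of TGF-beta, named here after their values were seen, ITGB6 and ITGB8 were under the background limit, at means of 2.81 and 2.89 in untreated cells, and ITGB5 was 5.98 ± 0.10 in untreated and 5.94 ± 0.27 in treated cells. In bulk RNA of this kind, fewer cells that express a gene and less RNA of that gene per cell cannot be told apart.

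SKIL is induced by TGF-beta and its product holds SMAD complexes in an inactive state. It was measured at 7.70, 7.47 and 7.78 on the untreated arrays and at 7.13, 7.33 and 7.04 on the leaf extract arrays. The groups did not overlap, and the smallest gap was between untreated array 2 and leaf extract array 2. The log2 change was -0.49 with an SE of 0.11 (adjusted p = 0.384, limma). Clusters of this brightness were lower on leaf extract arrays 1 and 3 by a median of -0.17, and after quantile normalization the change of SKIL was -0.37. SKIL kept an unadjusted p under 0.05 in each of the 15 alternative settings, with changes from -0.58 to -0.37. With leaf extract array 2 as the only treated array, an alternative chosen after seeing the data, the change was -0.32 and missed the nominal threshold in a fit with 1 array in that arm. PMEPA1, another gene that TGF-beta induces and that limits SMAD signalling, was under the background limit, with a mean of 3.21 in untreated and 3.35 in treated cells and overlapping groups. The log2 change of PMEPA1 was 0.15, and it passed the nominal threshold only without leaf extract array 1, at 0.20.

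Of the 6 matricellular genes, CCN1 and CCN2 passed the nominal threshold. CCN1 was measured at 5.89, 5.6 and 5.79 on the untreated arrays and at 6.06, 6.16 and 6.50 on the leaf extract arrays. Each treated array was above each untreated one, and leaf extract array 3 was the highest. The log2 change of CCN1 was 0.48 with an SE of 0.14 (adjusted p = 0.456, limma). CCN2 was measured at 6.98, 6.98 and 6.94 on the untreated arrays and at 7.24, 7.32 and 7.12 on the leaf extract arrays. Here leaf extract array 2 was the highest, and the groups did not overlap. The log2 change of CCN2 was 0.26 with an SE of 0.07 (adjusted p = 0.450, limma), and after centring of the arrays it was 0.20 and missed the nominal threshold. Both CCN genes are also known targets of YAP and TEAD.

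THBS1, thrombospondin 1, which can activate latent TGF-beta, was 8.76 ± 0.12 in untreated and 8.54 ± 0.23 in treated cells (SD, n = 3). Its groups overlapped through leaf extract array 2, and without that array the log2 change of THBS1 was -0.34 and passed the nominal threshold. TGFBI, a TGF-beta-induced adhesion protein, had a log2 change of -0.13 with an SE of 0.11. SPARC, a collagen-binding glycoprotein, was deposited with 1 value, 8.88, on all 3 untreated arrays and on leaf extract array 3, and was 9.15 and 9.37 on leaf extract arrays 1 and 2. Its log2 change was 0.25 with an SE of 0.12 and overlapping groups, and without leaf extract array 3 it was 0.38 and passed the nominal threshold. POSTN, periostin, was near the background level with a log2 change of -0.03.

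**Figure D3:**
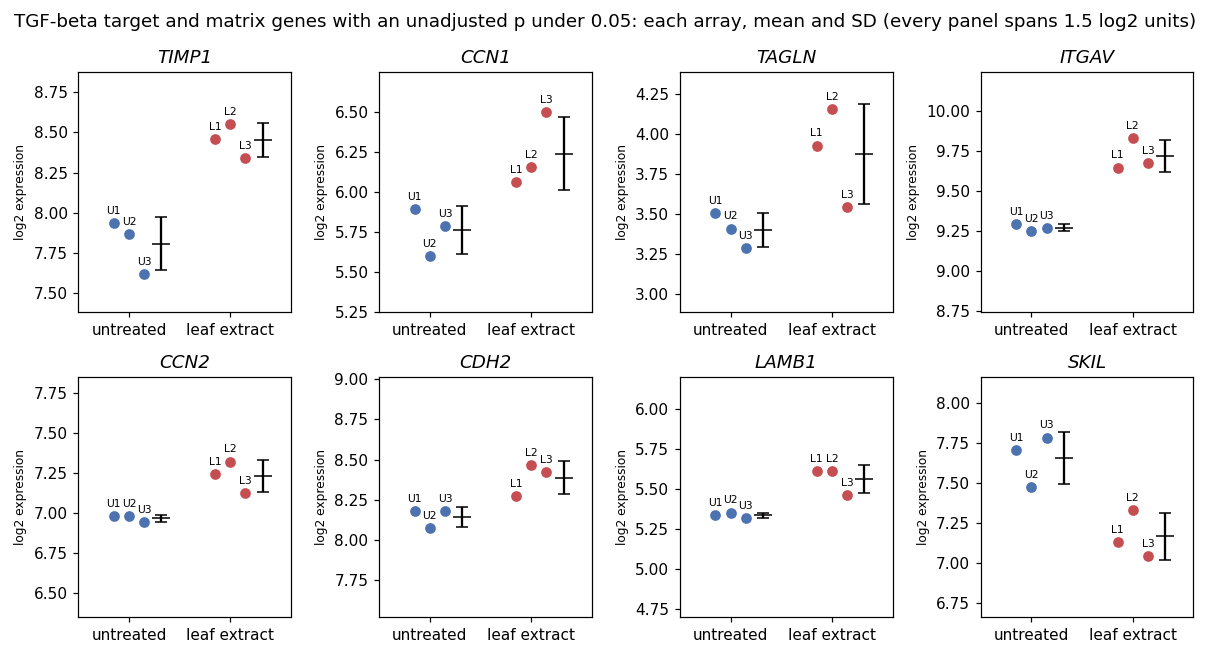
Log2 expression of the 8 genes with an unadjusted p under 0.05 on each array (U untreated, L leaf extract, with the array number), with the mean and SD of each group beside the points. Every panel spans 1.5 log2 units. The groups do not overlap in any panel, SKIL is lower in the treated cells, and TAGLN and CCN1 have the widest spread among treated arrays.

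Genes for the interstitial matrix did not pass the nominal threshold. COL1A1 and COL1A2, the chains of type I collagen, had log2 changes of 0.24 (SE 0.11) and 0.04 (SE 0.07). COL1A2 was under the background limit, and its change was -0.04 after quantile normalization. COL1A1 was measured at 4.16 to 4.22 in untreated cells and at 4.59, 4.22 and 4.50 on leaf extract arrays 1, 2 and 3. COL6A1, a chain of the microfibril-forming type VI collagen, was likewise at 4.26, 3.80 and 4.37, against 3.85 to 4.10 in untreated cells. On leaf extract array 2 both genes lay within or below the untreated range. Without that array their log2 changes were 0.35 and 0.36 and passed the nominal threshold. In that fit 8.28% of all clusters were higher and 11.7% lower at the same threshold. COL5A1, a chain of a collagen that regulates fibril width, had 1 value, 3.32, on all untreated arrays and on leaf extract array 2 and was under the background limit. FN1, fibronectin, was 7.70 ± 0.06 in untreated and 7.81 ± 0.15 in treated cells (SD, n = 3). Its log2 change of 0.11 became 0.22 after quantile normalization and 0.19 without leaf extract array 1, and both passed the nominal threshold.

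Of the basement membrane genes, LAMB1, the laminin beta 1 chain, alone passed the nominal threshold. It was measured at 5.34, 5.35 and 5.32 on the untreated arrays and at 5.61, 5.61 and 5.46 on the leaf extract arrays. The groups did not overlap, and leaf extract array 3 was the lowest of the treated arrays. The log2 change was 0.23 with an SE of 0.07 (adjusted p = 0.474, limma), and after centring it was 0.16 and missed the nominal threshold. LAMC1, the gamma 1 chain found in the same laminins, was 8.76 ± 0.08 in untreated and 8.71 ± 0.02 in treated cells (SD, n = 3), a change of -0.05 that was 0.05 after quantile normalization. The type IV collagen genes COL4A1 and COL4A2 and the type XVIII collagen gene COL18A1 were under the background limit, with log2 changes of 0.02, 0.10 and 0.04 and overlapping groups. After quantile normalization the changes of COL4A1 and COL18A1 were below 0, at -0.01 and -0.03.

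TIMP1 showed the largest change of the set. It was measured at 7.93, 7.86 and 7.62 on the untreated arrays and at 8.46, 8.55 and 8.34 on the leaf extract arrays. Every treated array was above every untreated array, and untreated array 3 was the lowest. The log2 change was 0.65 with an SE of 0.11 (adjusted p = 0.297, limma), and it ranged from 0.55 to 0.76 over those 15 settings, with an unadjusted p under 0.05 in each. The related inhibitors TIMP2 and TIMP3 had overlapping groups. TIMP2 was 4.79 ± 0.15 in untreated and 5.03 ± 0.23 in treated cells (SD, n = 3), and without leaf extract array 2 its log2 change of 0.24 became 0.36 and passed the nominal threshold. TIMP3 was 7.14 on leaf extract array 1 but 7.85 and 7.80 on arrays 2 and 3, against 7.36 to 7.64 in untreated cells, and its second cluster had a log2 change of 0.21 against 0.12 for the first. Without leaf extract array 1 the change of TIMP3 was 0.35 and passed the nominal threshold.

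MMP2 and MMP14, the metalloproteinases of the set, were under the background limit. Of 24 other matrix proteases and inhibitors, 5 lay above it, namely ADAM9, ADAM10, ADAM17, MMP11 and MMP15. MMP2, gelatinase A, had a log2 change of 0.09 (SE 0.11). MMP14, a membrane-bound metalloproteinase that activates pro-MMP2, was 3.68 ± 0.05 in untreated and 3.84 ± 0.09 in treated cells (SD, n = 3), with groups that did not overlap and an unadjusted p of 0.0784 (limma, adjusted p = 0.518). Without leaf extract array 2 the change of MMP14 was 0.19 and passed the nominal threshold. Of the crosslinking enzymes, LOXL2, a lysyl oxidase, was under the background limit with a log2 change of -0.04. TGM2, tissue transglutaminase, was 5.30 ± 0.05 in untreated cells and 5.67, 5.59 and 5.29 on leaf extract arrays 1, 2 and 3. The log2 change of TGM2 was 0.21, and without leaf extract array 3 it was 0.33 and passed the nominal threshold.

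**Figure D4:**
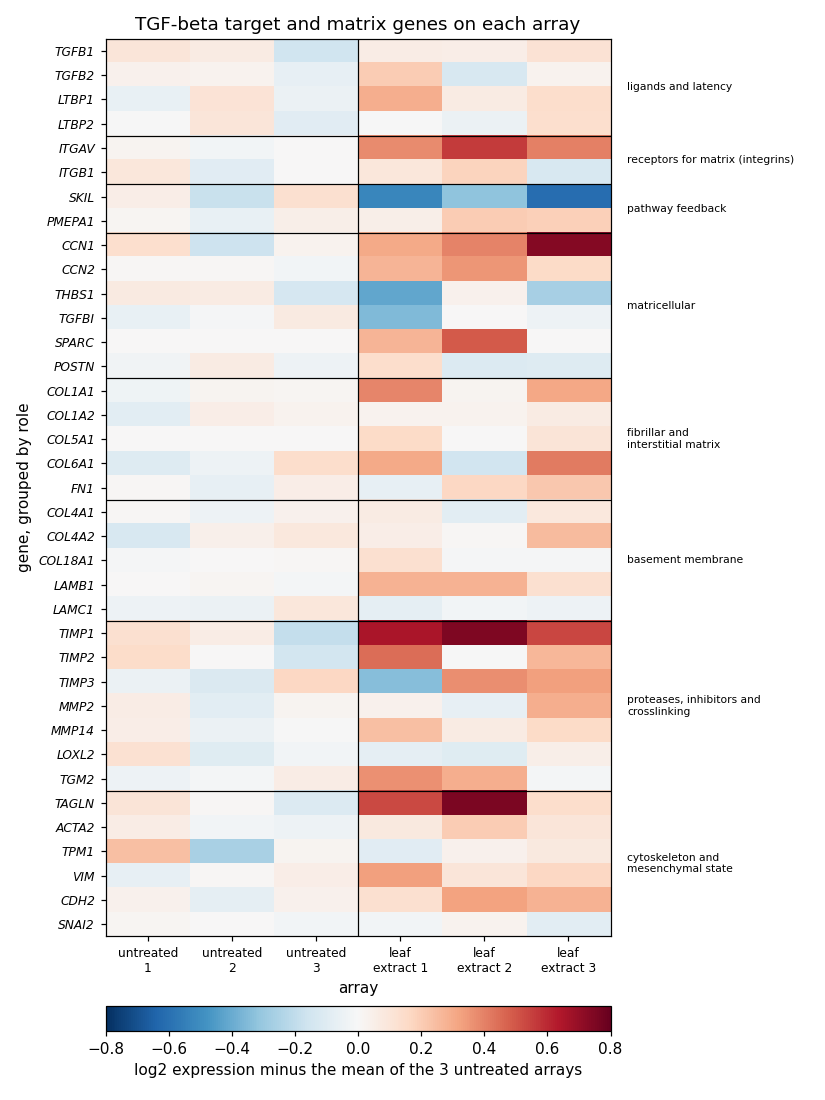
Log2 expression of the 37 genes (rows, grouped by role) on the 6 arrays (columns) minus the mean of the 3 untreated arrays. Red is higher and blue lower. TIMP1, ITGAV, CCN1 and TAGLN are red on all leaf extract arrays and SKIL is blue, while COL1A1 and COL6A1 are red on leaf extract arrays 1 and 3 and not on array 2.

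Of the genes for the cytoskeleton and mesenchymal state, TAGLN encodes transgelin, an actin-binding protein. It was measured at 3.5, 3.41 and 3.29 on the untreated arrays and at 3.93, 4.15 and 3.54 on the leaf extract arrays. The groups did not overlap, but leaf extract array 3 was only slightly above untreated array 1, and the mean of the gene was under the background limit. The log2 change was 0.47 with an SE of 0.16 (adjusted p = 0.50, limma). The change missed the nominal threshold without untreated array 2 (0.48), without untreated array 3 (0.42), without leaf extract array 1 (0.45) and without leaf extract array 2 (0.34).

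CDH2, N-cadherin, which hepatocytes also carry, was measured at 8.18, 8.07 and 8.18 on the untreated arrays and at 8.27, 8.47 and 8.42 on the leaf extract arrays. The groups did not overlap, and leaf extract array 1 was closest to the untreated arrays. The log2 change was 0.24 with an SE of 0.08 (adjusted p = 0.494, limma). It missed the nominal threshold after centring (0.18) and without untreated array 2 (0.21). ACTA2, smooth muscle actin, was 6.04 ± 0.05 in untreated and 6.16 ± 0.07 in treated cells (SD, n = 3), with groups that did not overlap and an unadjusted p of 0.114 (limma, adjusted p = 0.547). VIM, vimentin, was at background, with a mean of 2.86 in untreated and 3.06 in treated cells, groups that did not overlap and an unadjusted p of 0.0525 (limma, adjusted p = 0.513). Without leaf extract array 2 the log2 change of VIM was 0.25 and passed the nominal threshold. TPM1, a tropomyosin, and SNAI2, the transcription factor Slug, had log2 changes of 0.01 and -0.03, and SNAI2 was under the background limit.

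The order of the treated arrays differed with brightness. Among the 16 genes under the background limit, leaf extract array 2 was the lowest of the 3 treated arrays for 12, or 75%, beside 32.2% of all tested clusters. Among the 21 genes above the limit it was the highest for 12, or 57.1%, beside 36.3% of all tested clusters. The median log2 difference from the untreated mean was 0.10, 0.00 and 0.12 on leaf extract arrays 1, 2 and 3 for the dim genes and 0.13, 0.18 and 0.13 for the bright ones. All tested clusters are not matched in brightness to the dim or the bright genes. Over the whole array, clusters at 7 and over had median differences of -0.17, -0.01 and -0.17 on leaf extract arrays 1, 2 and 3. Clusters under 3.5 had 0.05, 0 and 0.06. The array order is therefore not shown to be particular to these genes. The counts describe 3 arrays and were not tested.

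Other genes of the pathway and of the matrix were taken from 12 lists, also chosen with earlier results of these data known. The lists hold 220 measured genes besides the set. Of these, 21 were higher (9.5%) and 1 was lower at an unadjusted p under 0.05, beside 3.87% and 5.9% of all clusters, which are the background for the count of each list too. Of the 220 genes none passed the adjustment (limma), and their median log2 change was 0.06, beside 0.01 over all clusters. The receptors were the list with the smallest p. TGFBR2, the type II receptor that binds TGF-beta, was measured at 7.97, 8.05 and 8.02 on the untreated arrays and at 8.43, 8.50 and 8.33 on the leaf extract arrays. The log2 change of TGFBR2 was 0.41 with an SE of 0.07 (adjusted p = 0.328, limma). TGFBR3, the coreceptor betaglycan, was measured at 5.17, 5.05 and 5.04 and at 5.75, 5.57 and 5.44, a change of 0.50 with an SE of 0.10 (adjusted p = 0.351, limma). In both genes all treated arrays were above all untreated arrays, and both kept an unadjusted p under 0.05 in each of the 15 alternative settings.

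ENG, the coreceptor endoglin, had a log2 change of 0.34 with overlapping groups, and it kept p under 0.05 in 2 of the 6 fits that left out 1 array, with changes from 0.26 to 0.46. The other 9 of the 12 receptors did not pass the nominal threshold. Among 18 genes for ligands and latency, INHBE, an inhibin beta chain secreted by hepatocytes, alone passed, at 0.38, with overlapping groups and in 1 of 6 such fits (0.24 to 0.53). Of 16 SMADs and regulators 0 passed the nominal threshold, and their median log2 change was -0.08. Named after their values were seen, SMAD2 had a log2 change of -0.27 with an SE of 0.11, SMAD3 of 0.17 with an SE of 0.08 and the inhibitory SMAD7 of -0.32 with an SE of 0.13, each with overlapping groups (adjusted p = 0.513 each, limma).

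Of 23 further TGF-beta target genes, 6 were higher and 0 lower at an unadjusted p under 0.05, with a median change of 0.16. The log2 change was above 0 for 16 of the 23 and below 0 for 7, down to -0.32. KLF6, a zinc finger transcription factor, had a log2 change of 0.47, BHLHE40, a transcriptional repressor, of 0.81, and SERPINE2, a secreted inhibitor of thrombin and plasmin, of 0.55 (adjusted p = 0.351, 0.383 and 0.383, limma). In these 3 genes the groups did not overlap, and p stayed under 0.05 without any 1 array. The largest of these values, that of BHLHE40, rested in part on leaf extract array 2, where the gene was at 7.35 beside 6.72 on each of the other treated arrays. Of 22 YAP and TEAD target genes, 3 were higher and 0 lower, with a median of 0.04. MYOF, the membrane repair protein myoferlin, NT5E, an ectonucleotidase, and PTPN14, a phosphatase that restrains YAP, had log2 changes of 0.64, 0.61 and 0.38 (adjusted p = 0.383 each, limma) and groups that did not overlap.

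In the lists of other matrix genes the share that was higher ran from 0 to 12.5%. Of 27 other collagens, 2 were higher, COL9A3 and COL2A1, at log2 changes of 0.54 and 0.43 with overlapping groups. The mean of COL2A1 over the 6 arrays was under the background limit, with 3.43 in untreated and 3.86 in treated cells. COL9A3 kept p under 0.05 in 2 of 6 fits that left out 1 array (0.38 to 0.77) and COL2A1 in 1 (0.28 to 0.60). With leaf extract array 2 as the only treated array, their changes were 0.08 and 0.11. Of 24 other matrix glycoproteins, 3 were higher, namely THBS3, a thrombospondin, at 0.28, the elastin gene ELN at 0.42 and VCAN, versican, a large proteoglycan, at 0.57. THBS3 was near the background level, ELN kept p under 0.05 in 2 of 6 such fits (0.30 to 0.58) and VCAN in 1 (0.39 to 0.81). Of 11 other laminin and basement membrane genes 0 passed.

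Of 19 genes for collagen modification, PLOD2, a lysyl hydroxylase, alone was higher, at 0.35, and it missed the nominal threshold without leaf extract array 3 (0.31). Of 24 other proteases and inhibitors, ADAM9, a membrane-bound metalloproteinase, alone was lower, at -0.21, and it kept p under 0.05 in 1 of 6 such fits (-0.29 to -0.16). Of 19 other integrins, ITGA3, the alpha 3 chain, was higher, at 0.40, from a mean near background, and it missed the nominal threshold without leaf extract array 3 (0.33). Of 13 other genes of the mesenchymal and epithelial state, the epithelial keratin gene KRT19 alone was higher. KRT19 was measured at 7.42, 7.41 and 7.28 on the untreated arrays and at 8.06, 8.35 and 7.73 on the leaf extract arrays, a log2 change of 0.67 with an SE of 0.16 (adjusted p = 0.383, limma).

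**Figure D5:**
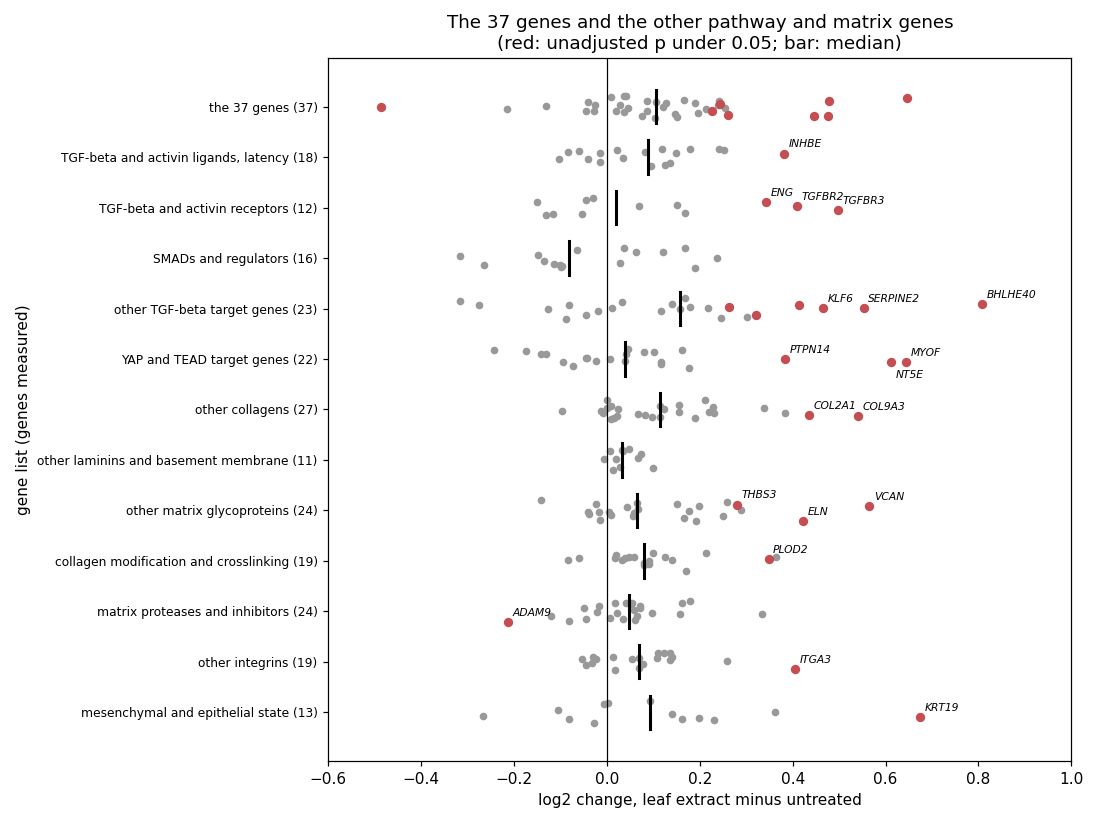
Log2 change with the leaf extract (horizontal axis) of the 37 genes and of the 12 lists of other pathway and matrix genes (rows, with the number measured). Points are genes, red where the unadjusted p is under 0.05, and the black bar is the median of the list. BHLHE40, at 0.81, is the farthest point, and the medians of the lists lie between -0.08 and 0.16.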

How the data were processed

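Per the labels and the study's notes, the authors hybridised RNA to Affymetrix Human Gene 1.0 ST arrays and deposited 1 table of log2 expression values, made with GCOS, Partek and RMA. Versions and RMA options were not given in the sources used here. Of 33297 rows, 4468 were 0 on all arrays and were left out. Platform annotation, updated by Entrez identifier to GRCh38.p14, gave 19291 rows 1 symbol, 1735 several and 7803 none, and the first were tested. The number of arrays limits the precision.

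The 3 treated and 3 untreated arrays entered 1 fit of limma 3.58.1 (lmFit, eBayes, no covariate) in R 4.3.3 with Benjamini-Hochberg adjustment, after the code was tested on simulated data. Where a gene had several clusters, the brightest was used. Genes with an unadjusted p under 0.05, at least 1.5 fold, or non-overlapping groups with a log2 change of at least 0.25 are given by array, and from each other list the 3 genes of smallest p, if under 0.05, are named. The genes and lists were chosen with earlier results of these data known. Alternatives were quantile normalization, centring, no dim clusters, array weights, a robust fit with an intensity trend, ordinary analysis of variance, all rows, the mean of a gene's clusters, a replicate block, leaving out each array, and leaf extract array 2 alone, the last chosen after seeing the data.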

Additional observations from a re-analysis of the deposited data

How the results depend on the processing

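Direction was followed over the alternatives for 56 genes, the 37 and the genes of smallest p from the other lists. Among these 56, no gene with an unadjusted p under 0.05 changed direction under any alternative. That is no independent support, because the genes were picked out by that p in the same data. Several alternatives also leave the log2 change of a gene with 1 cluster as it is. Genes that missed that p did change sign, among them TGFB2, LTBP2, COL1A2 and TPM1. The number of clusters past the adjustment, 1 as deposited, was 8 after quantile normalization, 3 after centring, 4 without dim clusters, 2 with an intensity trend and robust fit, 3 with array weights, 0 with the ordinary analysis of variance, 2 with all rows tested, 2 with the mean of a gene's clusters, 0 with the replicate block, 0 in every fit that left out 1 array and 0 with leaf extract array 2 as the only treated array. Among the 37 genes, the number at an unadjusted p under 0.05, 8 as deposited, was 5 after centring and 6 to 13 when 1 array was left out, with the highest without leaf extract array 2, and 7 with the replicate block. The number that also changed by 1.5 fold, 1 as deposited, was 0 after centring, 0 to 2 when 1 array was left out and 2 with leaf extract array 2 alone. The median log2 change, 0.11 as deposited, was 0.041 after centring, 0.19 without dim clusters, 0.037 with leaf extract array 2 alone and 0.08 to 0.13 when 1 array was left out. Beside these, the median over all clusters was 0.01 as deposited, -0.05 after centring, -0.05 without dim clusters and 0.00 with leaf extract array 2 alone, and centring lowers every gene by the same 0.064. The fit on leaf extract array 2 alone assumes that array to vary like the untreated ones. Other causes were not tested. Clusters at an unadjusted p under 0.05 were higher in 39.6% of cases as deposited (746 higher, 1139 lower), in 46.0% after quantile normalization (882 and 1037), in 16.7% after centring (376 and 1875), and in 27.8% without dim clusters. Arrays with the same replicate number did not deviate together (correlations of -0.11, -0.18 and 0.12), so the number was not used as a pairing, and with the block CDH2 had p = 0.0517 (limma, unadjusted). Genes under the background limit have changes that signal this low may compress.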
